A study of Danio rerio with 6 samples.

Results

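The genes described here are the adult and embryonic globins of the zebrafish, the protein chains that carry oxygen in red cells. They were chosen by name alone: a list of 9 names (hbaa1, hbaa2, hbba1, hbba2, hbae1.1, hbae3, hbae5, hbbe1.1 and hbbe2), to which every further name starting with hbae or hbbe was added. Of the 9 names 5 matched a gene, and hbba1, hbba2, hbbe1.1 and hbbe2 matched none. With hbae1.2, hbae1.3, hbae4 and hbbe3 added there were 9 members among 32520 genes, 2 adult (hbaa1 and hbaa2, both alpha chains) and 7 embryonic (6 alpha chains and the beta chain hbbe3). Because the names left out nearly all beta chains, 8 further globin genes at the same loci were followed. They are the 7 genes listed under the human symbol HBE1, which names a beta type globin and was carried by no gene elsewhere, and si:ch211-5k11.8 (ENSDARG00000079078), for which RefSeq gives the synonym hbaa1.2. The adult or embryonic stage of the genes listed as HBE1 was not assigned, so the stage comparison rests on the 9 members and the chain comparison on all 17 genes.

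RNA from cells of skin and melanoma biopsies was sequenced in 6 libraries, 2 for each of 3 groups of fish aged 1 month. In mgat4b mutant melanoma, plasmids of the MAZERATI system expressed a mutant BRAF oncogene and targeted p53, ptena, ptenb and mgat4b in melanocytes, with Cas9 driven by the mitfa promoter, so that editing was somatic and mosaic and blood cells were not its target. Control melanoma carried the same system without an mgat4b guide (a nontargeting guide or an empty vector), and wild-type melanophores came from untreated fish without it. The cells were dissociated and collected on a Percoll density gradient without sorting, and the design text counts 5 fish for cells that gave 6 libraries, so how many animals stand behind a library was not given. The p-values therefore measure the spread between libraries labelled as biological replicates.

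A hemoglobin molecule joins alpha type and beta type chains, each of which holds a heme group with an iron atom. In zebrafish the genes of both chain types lie side by side at a major locus on chromosome 3 and a minor locus on chromosome 12, and the chains used in the embryo and larva give way to adult chains as the fish grows. Zebrafish red cells keep their nucleus and belong to the blood, not to the pigment lineage. In bulk libraries, fewer red cells and less globin RNA per cell cannot be told apart.

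The libraries held between 3538922 and 8446997 counts. The most abundant gene was rn7sl1, the RNA of the signal recognition particle, which took 26.2% to 30.7% of the counts in mgat4b mutant melanoma, 37.3% to 37.4% in control melanoma and 7.65% in both libraries of wild-type melanophores. The targeted gene mgat4b (ENSDARG00000004115) had 20.2 and 15.4 CPM in mgat4b mutant melanoma, against 15.8 and 16.2 CPM in control melanoma and 26.0 and 26.7 CPM in wild-type melanophores (log2 fold change of mutant against control 0.17 ± 0.28, edgeR adjusted p = 0.717), so its RNA level did not set the mutant libraries apart from the controls. The melanophore label had little backing in its markers, since pmela, a melanosome matrix gene, stood at 95.2 and 78.5 CPM in mgat4b mutant melanoma and at 65.4 and 69.2 CPM in control melanoma, but at 4.44 and 4.61 CPM in wild-type melanophores. Summed over 13 melanophore markers the level was 255 and 234 CPM in mgat4b mutant melanoma, 234 and 238 CPM in control melanoma and 37.5 and 33.2 CPM in wild-type melanophores. Summed markers of keratinocytes reached 11527 to 18237 CPM over the 6 libraries. CPM, the count of a gene relative to the size of its library, are scaled here by the trimmed mean of M values (TMM), which sets libraries level by the bulk of their genes and not by their totals.

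All 17 globin genes together took 0.652% and 0.648% of the counts in mgat4b mutant melanoma, 0.593% and 0.606% in control melanoma and 0.590% and 0.567% in wild-type melanophores. The 2 adult members took between 0.0962% and 0.102% in every library, and the groups overlapped. On the TMM scale the same counts read differently. The summed adult level was 1146 and 1022 CPM in mgat4b mutant melanoma, 1226 and 1270 CPM in control melanoma and 742 and 711 CPM in wild-type melanophores. No groups overlapped, with log2 ratios of the means of -0.20 for mutant against control, 0.78 for control against wild-type and 0.58 for mutant against wild-type. The exact two-sided permutation test of 2 libraries against 2 gave p = 0.333 for each, the smallest it can give, and no p over the 12 tests of sums was below 0.364 after Benjamini-Hochberg adjustment. With total counts as the scale these log2 ratios were 0.032, -0.032 and 3.0e-04. A rise of the 2 adult members together in either melanoma over wild-type melanophores is thus a rise relative to the typical gene. This sum leaves out si:ch211-5k11.8 (synonym hbaa1.2). With total counts its log2 fold change was still 0.22 for control and 0.30 for mutant against wild-type. The share of all 17 genes given above was also higher in both melanoma groups than in wild-type melanophores, without overlap. The change of scale from TMM to totals moved the median of all genes by -0.89 for control against wild-type, -0.61 for mutant against wild-type and 0.22 for mutant against control.

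Where the genes lie orders what follows. On chromosome 3 of the GRCz11 build, 3 head-to-head pairs stand in a row, each a beta type gene listed as HBE1 on the minus strand followed by an alpha gene on the plus strand. The outermost pair is ENSDARG00000069734 (55091230 to 55092051) with hbaa2 (ENSDARG00000069735, 55093581 to 55094399), with 1529 bases between the genes. Next come ENSDARG00000097238 (55098457 to 55099272) with hbaa1 (ENSDARG00000097011, 55100045 to 55100936), 772 bases apart, and ENSDARG00000089087 (55103445 to 55104310) with si:ch211-5k11.8 (55105066 to 55105966), 755 bases apart. Below, the beta type genes are called the HBE1 partners of hbaa2, hbaa1 and si:ch211-5k11.8. Beyond them, up to position 55147788, lie the embryonic members hbae1.1, hbae1.2, hbae1.3 and hbae3 on the minus strand and the other 3 chromosome 3 genes listed as HBE1 on the plus strand. The minor locus on chromosome 12 holds hbae4, hbbe3, hbae5 and a gene listed as HBE1, ENSDARG00000045143, that lies inside the annotated span of hbae5 on the opposite strand and shares 765 bases with it. The strand setting of the counting was not given in the sources used here, so the counts of hbae5 and ENSDARG00000045143 cannot be told apart with certainty, and reads that match near-identical globin genes may have been shared or lost.

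**Figure D1:**
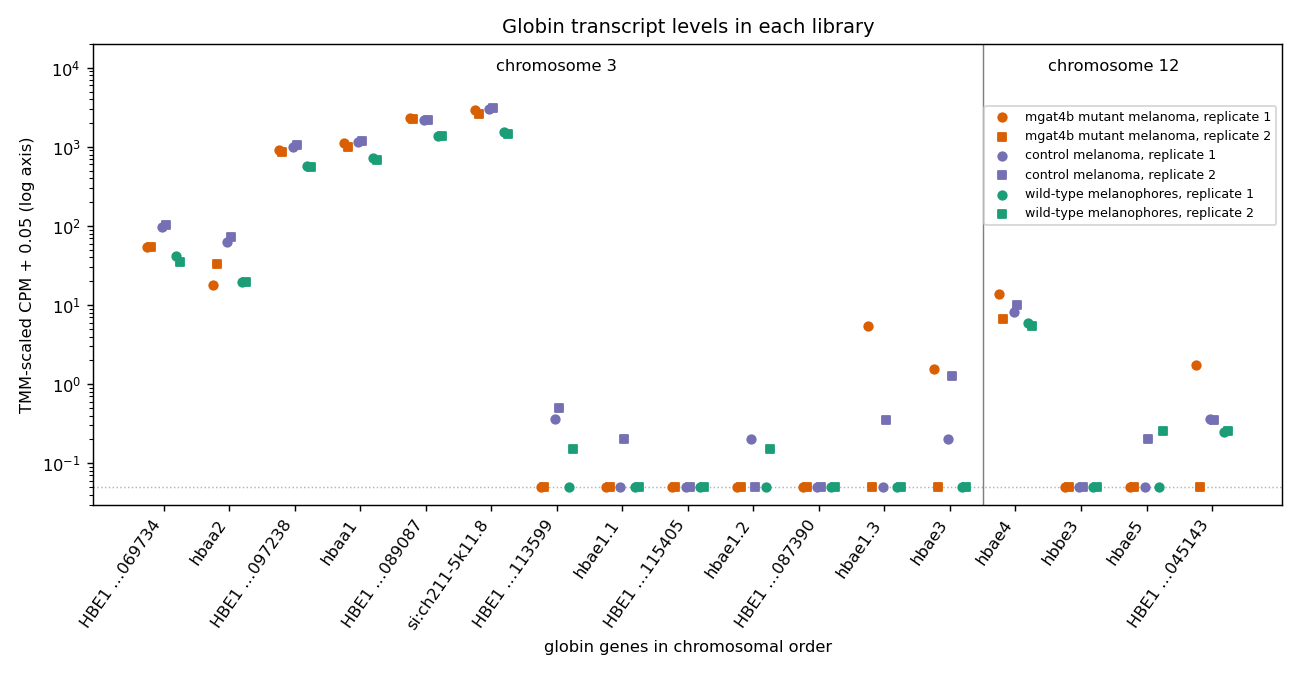
The y axis gives TMM-scaled CPM plus 0.05 on a log scale for each of the 17 globin genes, in chromosomal order along the x axis, with a point for each library and the dotted line at a count of 0. The 3 pairs at the left of chromosome 3 and hbae4 on chromosome 12 hold nearly all counts, and the other genes lie at or near 0.

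The innermost pair was the most abundant. Per kilobase of exon, si:ch211-5k11.8 stood at 4393 and 3980 CPM per kb in mgat4b mutant melanoma, 4620 and 4726 in control melanoma and 2341 and 2226 in wild-type melanophores. Its HBE1 partner followed at 1622 to 2718 CPM per kb over the 6 libraries, then hbaa1 at 1063 to 1842, the HBE1 partner of hbaa1 at 901 to 1715, the HBE1 partner of hbaa2 at 53.6 to 157, hbaa2 at 31.9 to 127 and hbae4 at 7.02 to 18.3. This order was identical in all 6 libraries, and no neighbours in it overlapped within a group. The closest neighbours were hbaa1 and its HBE1 partner, whose means differed by a ratio of 1.14 in mgat4b mutant melanoma, 1.09 in control melanoma and 1.2 in wild-type melanophores. Levels were thus highest in the innermost pair and lowest in the outermost pair in every group.

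The adult gene hbaa1 had 1128 and 989 CPM in mgat4b mutant melanoma, 1163 and 1199 CPM in control melanoma and 723 and 692 CPM in wild-type melanophores. Both melanoma groups lay above wild-type melanophores, and the mutant libraries lay just below the controls. In edgeR's quasi-likelihood test the log2 fold change was -0.14 ± 0.09 (SE) for mutant against control (adjusted p = 0.318), 0.82 ± 0.05 for control against wild-type (adjusted p = 7.9e-21) and 0.61 ± 0.09 for mutant against wild-type (adjusted p = 0.00333). A call needed both an adjusted p under 0.05 and a log2 fold change of 1 or more in size, so hbaa1 was called in no comparison. With total counts as the scale its fold changes turned to 0.077 for mutant against control and -0.073 for control against wild-type.

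The adult gene hbaa2 behaved otherwise. It had 84 and 112 counts (18 and 33.2 CPM) in mgat4b mutant melanoma, 405 and 472 counts (62.7 and 71.6 CPM) in control melanoma and 195 and 188 counts (19.2 and 19.3 CPM) in wild-type melanophores. Control melanoma stood apart from both other groups, while the wild-type libraries lay between the mutant libraries. Against control melanoma, hbaa2 fell in mgat4b mutant melanoma, with a log2 fold change of -1.40 ± 0.26 and an adjusted p of 0.00613 in edgeR's test. It rose in control melanoma against wild-type melanophores by 1.88 ± 0.12 (adjusted p = 5.1e-19). In mutant against wild-type the value was 0.42 ± 0.30 (adjusted p = 0.346). The fall in the mutant was called under each of the 5 scalings tried and ran between -1.88 without mutant replicate 2 and -1.02 without mutant replicate 1. The rise in control melanoma missed the fold change threshold with total counts as the scale, at 0.99.

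The HBE1 partner of hbaa2, ENSDARG00000069734, showed a similar order of groups. It had 53.4 and 54.5 CPM in mgat4b mutant melanoma, 96.2 and 102 CPM in control melanoma and 41.9 and 34.9 CPM in wild-type melanophores. Control melanoma was again the highest group, and the mutant libraries lay between the controls and wild-type. It rose in control melanoma against wild-type melanophores by a log2 fold change of 1.45 ± 0.10 (edgeR adjusted p = 9.4e-18; 0.55 and not called with total counts). For mutant against control the value was -0.86 ± 0.13 with an adjusted p of 0.00237, past the p threshold but short of the fold change, and for mutant against wild-type it was 0.52 ± 0.15 (adjusted p = 0.0469). The outermost pair together took 0.978% and 1.29% of the counts on the 17 globin genes in mgat4b mutant melanoma, 2.10% and 2.24% in control melanoma and 1.43% and 1.31% in wild-type melanophores.

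In the comparisons with control melanoma the fold changes of the other pairs were smaller than those of the outermost pair, while for mutant against wild-type they were larger, 0.61 to 0.90 against 0.42 and 0.52. si:ch211-5k11.8 had 2886 and 2615 CPM in mgat4b mutant melanoma, 3035 and 3105 CPM in control melanoma and 1538 and 1462 CPM in wild-type melanophores. It rose in control melanoma against wild-type by a log2 fold change of 1.12 ± 0.04 (edgeR adjusted p = 1.2e-28), a call that was lost with total counts as the scale (0.22) and with totals taken without rn7sl1 (0.78). For mutant against wild-type it was 0.90 ± 0.08 (adjusted p = 3.2e-04) and for mutant against control -0.14 ± 0.08 (adjusted p = 0.245). Its HBE1 partner, ENSDARG00000089087, had 2291 and 2246 CPM in mgat4b mutant melanoma, 2182 and 2218 CPM in control melanoma and 1382 and 1367 CPM in wild-type melanophores. On the TMM scale it was the only gene of the 3 pairs with both mutant libraries above both controls, by a log2 fold change of 0.06 ± 0.07 that did not pass the test (adjusted p = 0.613). The HBE1 partner of hbaa1, ENSDARG00000097238, had 900 and 853 CPM in mgat4b mutant melanoma, 1005 and 1058 CPM in control melanoma and 566 and 556 CPM in wild-type melanophores, with log2 fold changes of -0.22 ± 0.08 for mutant against control (adjusted p = 0.101), 0.96 ± 0.05 for control against wild-type and 0.67 ± 0.08 for mutant against wild-type.

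After the filter on low counts, 7 of the 17 globin genes and 3 of the 9 members (hbaa1, hbaa2 and hbae4) could be tested. For mgat4b mutant against control melanoma 1 of the 7, hbaa2, was called, as lower, while 6.68% of all 17651 genes tested were called lower and 12.5% in either direction. By adjusted p alone 2 of 7 passed, hbaa2 and its HBE1 partner, both lower, beside 9.26% of all genes lower and 9.46% higher. The median log2 fold change of the 7 genes was -0.14, beside -0.02 for all genes tested. For control melanoma against wild-type melanophores 3 of 7 were called higher (hbaa2, its HBE1 partner and si:ch211-5k11.8), beside 19.9% called higher and 31.9% called in either direction of 19088 genes. All 7 had an adjusted p under 0.05 and were higher, beside 29.2% of all genes higher and 27.0% lower by that measure, and their median was 0.96, beside -0.01 for all genes. For mgat4b mutant melanoma against wild-type melanophores edgeR called 0 of 7, beside 19.3% of 17950 genes in either direction and 9.72% called higher, although 5 of 7 had a p under 0.05 both before and after adjustment, all 5 higher (13.1% of all genes were higher and 13.9% lower by adjusted p alone), and the median was 0.67 against -0.03. DESeq2 made the same number of calls, 1, 3 and 0. These comparisons share their libraries, so that a high control value enters the first and the second alike.

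**Figure D2:**
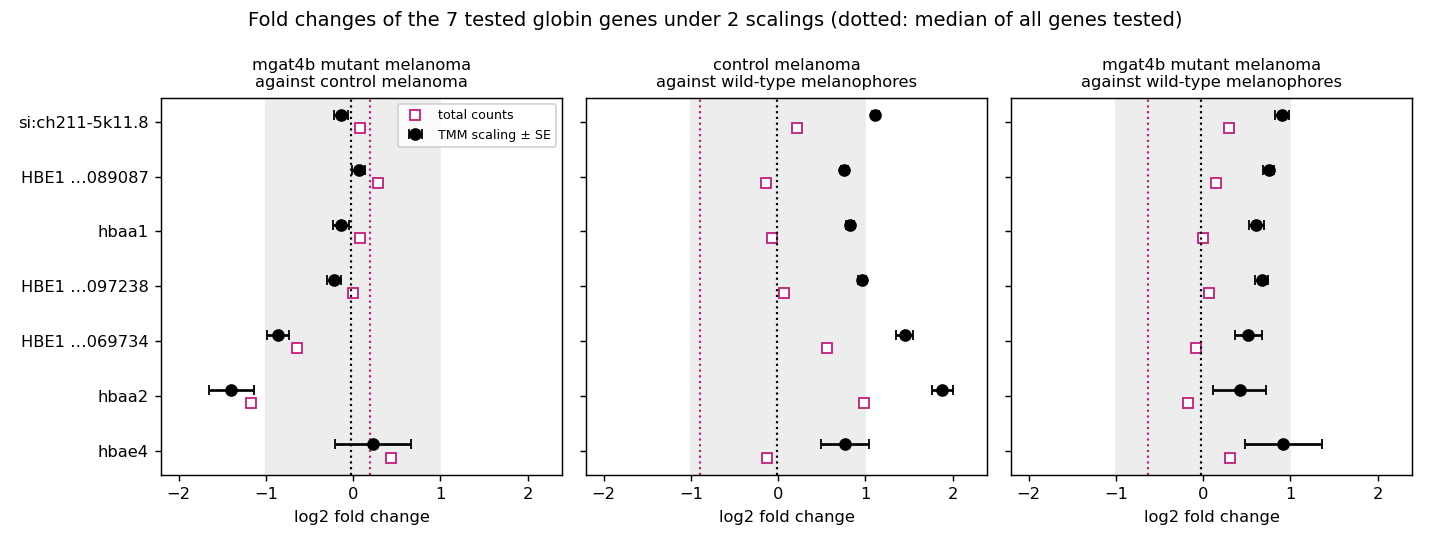
Log2 fold changes of the 7 tested globin genes are shown on the x axis with TMM scaling (black, ± SE) and with total counts (open squares), dotted lines giving the median of all genes tested under each scale and grey the range within 1. For control melanoma against wild-type melanophores all 7 genes lie between 0.76 and 1.88 with TMM. The squares lie about as far from their own median of -0.90, a distance that a change of scale leaves nearly fixed.

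A change of scale moves all genes of a comparison by nearly the same amount. The distance of a gene from the median of all genes tested is therefore nearly fixed and is no test of the scale. For control melanoma against wild-type, hbaa1 lay 0.83 above that median with TMM and hbaa2 1.89 above it both with TMM and with total counts. The HBE1 partner of hbaa2 lay 1.46 above it with TMM and si:ch211-5k11.8 1.12 above it under both scales.

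Shares within a library are free of the choice of scale. The share of hbaa2 in the counts of both adult members was 1.57% and 3.25% in mgat4b mutant melanoma, 5.12% and 5.63% in control melanoma and 2.59% and 2.71% in wild-type melanophores. The 95% Wilson intervals, which cover counting error only, ran from 4.66% to 5.63% and from 5.16% to 6.15% for the controls and reached no higher than 3.89% in any other library. Mutant and control did not overlap and neither did control and wild-type, but the permutation test cannot go below 0.333 for either. The share of the HBE1 partner of hbaa2 in the counts of the 7 genes listed as HBE1 was 1.64% and 1.73% in mgat4b mutant melanoma, 2.93% and 3.02% in control melanoma and 2.11% and 1.78% in wild-type melanophores, again with the controls highest. The 2 mutant libraries differed in the hbaa2 share beyond counting error, with intervals of 1.27% to 1.94% and 2.71% to 3.89%.

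By raw counts, which are not corrected for gene length, beta type genes took less than alpha genes in every library. Per kilobase of exon the beta type share was lower still in each group, as given below. Counts of RNA do not give the balance of the protein chains. Beta type genes (the 7 listed as HBE1 and hbbe3) took 44.5% and 46.4% of the counts on the 17 genes in mgat4b mutant melanoma, 43.5% in both libraries of control melanoma and 46.5% and 47.3% in wild-type melanophores. The share was lowest in control melanoma, with a mean difference of -3.45 percentage points from wild-type melanophores. The alpha gene si:ch211-5k11.8 ran the other way, with 39.5% and 38.5% of the counts in mgat4b mutant melanoma, 40.2% and 40.0% in control melanoma and 36.0% and 35.3% in wild-type melanophores. None of these groups overlapped. Genes of a chain type did not all move together. Of the beta type genes, ENSDARG00000089087 had a mean of 28.7% in control melanoma against 32.7% in wild-type melanophores. ENSDARG00000097238 (13.5% against 13.3%, with overlap) and ENSDARG00000069734 (1.29% against 0.91%) were not lower. Of the alpha genes, hbaa1 was lower in control melanoma (15.4% against 16.8%) and hbaa2 higher (0.88% against 0.46%). Over all 48 permutation tests of shares the smallest adjusted p was 0.571.

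**Figure D3:**
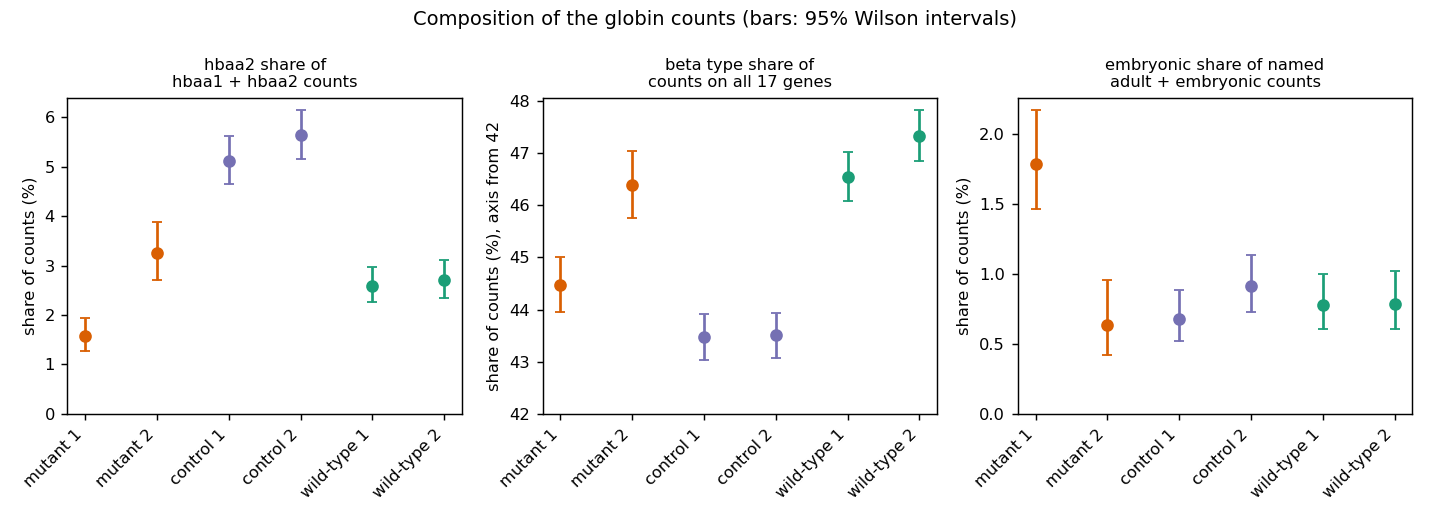
Each panel gives a share of globin counts in percent on the y axis, with a point for each library and bars for the 95% Wilson interval, and the middle panel starts at 42%. The hbaa2 share is highest in both control melanoma libraries, the beta type share is lowest there, and the embryonic share is highest in mgat4b mutant replicate 1 at 1.78%.

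Embryonic globins were scarce next to adult ones. Of the counts on the 9 members, the embryonic genes held 97 of 5441 and 22 of 3472 in mgat4b mutant melanoma (1.78% and 0.634%), 54 of 7965 and 77 of 8454 in control melanoma (0.678% and 0.911%) and 59 of 7581 and 55 of 6991 in wild-type melanophores (0.778% and 0.787%). Of the counts on all 17 globin genes the embryonic members held less, 0.285% and 0.0959% in mgat4b mutant melanoma, 0.111% and 0.150% in control melanoma and 0.136% in both wild-type libraries. The groups overlapped, and the exact permutation test gave p = 1 for mutant against control. On the TMM scale the summed embryonic level was 20.8 and 6.52 CPM in mgat4b mutant melanoma, 8.37 and 11.7 CPM in control melanoma and 5.82 and 5.64 CPM in wild-type melanophores. The wild-type libraries lay below all others on that scale only. As shares of the library, mutant replicate 2 (6.22e-04%) and control replicate 1 (6.57e-04%) lay below both wild-type libraries (8.03e-04% and 7.72e-04%).

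Most of these counts came from hbae4, an alpha globin of the minor locus (ENSDARG00000045144, chromosome 12, 20336070 to 20337274). It held 65 of 97 and 22 of 22 embryonic counts in mgat4b mutant melanoma, 52 of 54 and 65 of 77 in control melanoma and 59 of 59 and 52 of 55 in wild-type melanophores. The levels were 13.9 and 6.52 CPM in mgat4b mutant melanoma, 8.06 and 9.86 CPM in control melanoma and 5.82 and 5.33 CPM in wild-type melanophores. The mutant libraries lay on either side of the controls. In edgeR's test the log2 fold change was 0.23 ± 0.44 for mutant against control (adjusted p = 0.770), 0.76 ± 0.27 for control against wild-type (adjusted p = 0.0152, under the fold change threshold, and -0.13 with total counts) and 0.92 ± 0.44 for mutant against wild-type (adjusted p = 0.172). Mutant replicate 1 decided the values of the mutant: without it they were -0.46 against control and 0.23 against wild-type. Without mutant replicate 2 they were 0.65 and 1.33. Each of these fits keeps a single mutant library, so only the fold changes are given. With 22 to 65 counts a library, exact Poisson intervals of the counts ran from 13.8 to 33.3 at the lowest and from 50.2 to 82.8 at the highest.

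The other 6 embryonic members had 32 and 0 counts together in mgat4b mutant melanoma, 2 and 12 in control melanoma and 0 and 3 in wild-type melanophores. Mutant replicate 1 held 25 counts of hbae1.3, while the other libraries had 2 counts at most, and control replicate 2 had those. The gene hbae3 had 7 and 0 counts in mgat4b mutant melanoma, 1 and 8 in control melanoma and 0 in both wild-type libraries. hbae1.1 and hbae1.2 had no more than 1 count in any library, hbae5 no more than 2, and hbbe3 none in all 6. A count of 0 allows a level of up to 3 counts, which is 0.296 to 0.889 CPM across the libraries, so that low embryonic expression was not detectable at this depth. Of the 4 remaining genes listed as HBE1, which held 0 to 8 counts a library together, 2 had none anywhere. The 25 counts of hbae1.3 came from a single library, and hbae1.3 was called (as higher, against both other groups) only where mutant replicate 2 was left out.

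Further genes of red cells and of iron and heme handling were followed through lists of heme synthesis, iron supply, red cell membrane and cytosol, erythroid regulators, and other globins and heme handling, 72 genes in all. They are called other red cell genes for short, although the last list and tfa of the iron list also stand for tissues outside red cells. For mgat4b mutant against control melanoma 2 of 64 tested genes were called higher and 8 lower, beside 5.86% and 6.68% of all genes tested. Of these 8 lower calls 4 fell in the list of other globins and heme handling, and tfa was a further one. For control melanoma against wild-type melanophores 13 of 66 were called higher and 7 lower, beside 19.9% and 12.1%. For mgat4b mutant melanoma against wild-type melanophores 5 of 64 were called higher and 7 lower, beside 9.72% and 9.57%. Leaving out a single library moved these counts in the comparisons of the mutant, and it moved the count of all genes called as well, as given below. Such a fit keeps a single library in a group. With total counts as the scale 2 were called higher and 6 lower for mutant against control, 5 higher and 20 lower for control against wild-type and 0 higher and 14 lower for mutant against wild-type. The balance of calls thus turned with the scale for control against wild-type. For mutant against wild-type more genes were called lower than higher under both scales. With total counts all genes were called higher and lower in 9.0% and 5.06%, 10.2% and 44.9%, and 4.92% and 24.6%.

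Of the genes that build the red cell membrane and cytosol, 6 of 13 were called higher and 7 were not called for control melanoma against wild-type melanophores, beside 19.9% of all genes called higher, with a median log2 fold change of 0.90 beside -0.01 for all genes. For mgat4b mutant melanoma against wild-type melanophores 2 of 13 were called higher, beside 9.72%, with a median of 0.32, and for mutant against control 2 of 13 were called lower, beside 6.68%, with a median of -0.22. With total counts as the scale 1 of 13 was called higher and 3 lower for control against wild-type, beside 10.2% and 44.9% of all genes. For mutant against wild-type 2 of 13 were then called lower, beside 24.6% of all genes. Band 3, the anion exchanger of the red cell membrane (SLC4A1, ENSDARG00000012881), had 202 and 246 CPM in mgat4b mutant melanoma, 271 and 248 CPM in control melanoma and 96.0 and 105 CPM in wild-type melanophores, and rose by 1.45 ± 0.07 in control melanoma and 1.19 ± 0.13 in mgat4b mutant melanoma over wild-type melanophores. cahz, a carbonic anhydrase of zebrafish red cells, had 135 and 136 CPM in mgat4b mutant melanoma, 143 and 142 CPM in control melanoma and 54.6 and 53.8 CPM in wild-type melanophores, rises of 1.48 ± 0.08 and 1.35 ± 0.11 over wild-type melanophores. With total counts these calls were lost, at 0.56 and 0.59 for SLC4A1 and at 0.59 and 0.75 for cahz. These genes thus stood near the same level in both melanoma groups, as hbaa1 did. RHAG, the Rh associated glycoprotein, had 36.7 and 45.3 CPM in mgat4b mutant melanoma, 91.1 and 76.3 CPM in control melanoma and 24.5 and 25.7 CPM in wild-type melanophores. It rose by 1.82 ± 0.11 in control melanoma over wild-type and fell by 1.02 on the log2 scale in mutant against control (edgeR adjusted p = 0.00359), and both calls were lost with total counts, at 0.92 and -0.80.

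The heme synthesis list had 2 of 13 genes called higher and 11 not called for control melanoma against wild-type, beside 19.9% of all genes called higher, with a median of 0.59. It had 1 of 13 called higher in each comparison of the mutant, beside 5.86% against control and 9.72% against wild-type, with medians of 0.03 and 0.62. alas2, the enzyme that starts heme synthesis in red cells, had 169 and 171 CPM in mgat4b mutant melanoma, 172 and 165 CPM in control melanoma and 106 and 108 CPM in wild-type melanophores. Its log2 fold change of 0.73 ± 0.07 in control melanoma over wild-type (edgeR adjusted p = 2.5e-12) stood close to the 0.82 of hbaa1 and was not called. FECH, which inserts iron into heme, had a value of 0.83 ± 0.15 in that comparison and UROD 0.65 ± 0.16, and neither was called. ALAD, the enzyme of the second step, was called in mgat4b mutant melanoma, with 29.8 and 28.7 CPM against 13.8 and 14.7 CPM in control melanoma and 12 and 13.6 CPM in wild-type melanophores, rises of 1.06 ± 0.23 and 1.22 ± 0.21, the second of which was not called with total counts (0.61). With total counts alas2, FECH and UROD stood at -0.16, -0.06 and -0.24 for control melanoma against wild-type.

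Of 11 iron supply genes 1 was called higher and 1 lower for control melanoma against wild-type (19.9% and 12.1% of all genes), and 1 higher and 2 lower in each comparison of the mutant (5.86% and 6.68% of all genes against control, 9.72% and 9.57% against wild-type). tfr1a, the transferrin receptor that zebrafish red cells need, was called in no comparison and had 85.8 and 103 CPM in mgat4b mutant melanoma, 80.7 and 89.9 CPM in control melanoma and 71.2 and 66.1 CPM in wild-type melanophores. Its relative tfr1b rose by 1.58 ± 0.14 in mutant against control and fell by 1.14 in control against wild-type, with 103 and 102 CPM in mgat4b mutant melanoma, 32.7 and 36.4 CPM in control melanoma and 86.7 and 75.0 CPM in wild-type melanophores. The iron exporter ferroportin (SLC40A1) fell by 1.75 in mgat4b mutant against control melanoma and by 1.48 against wild-type melanophores. Of 21 erythroid regulators 1 was called higher and 5 lower for control melanoma against wild-type, beside 19.9% and 12.1% of all genes, and the lower ones included MYB (-1.32 ± 0.13), klf17 (-1.83 ± 0.22) and zbtb7a (-1.58 ± 0.20), transcription factor genes of which the human counterpart of zbtb7a is known as a repressor of fetal globin. For mutant against control edgeR and DESeq2 each called 0 of 19, beside 12.5% of all genes called by edgeR in either direction. In edgeR's test 3 of the 19 had an unadjusted p under 0.05. By adjusted p alone 2 passed, beside 9.46% of all genes higher and 9.26% lower. gata1a, the master regulator of red cell genes, had 6.0 and 0 CPM in mgat4b mutant melanoma, 4.65 and 4.4 CPM in control melanoma and 3.16 and 4.31 CPM in wild-type melanophores, and klf1, an activator of globin genes, fell by 1.12 in mgat4b mutant melanoma against wild-type melanophores (edgeR adjusted p = 0.0331).

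**Figure D4:**
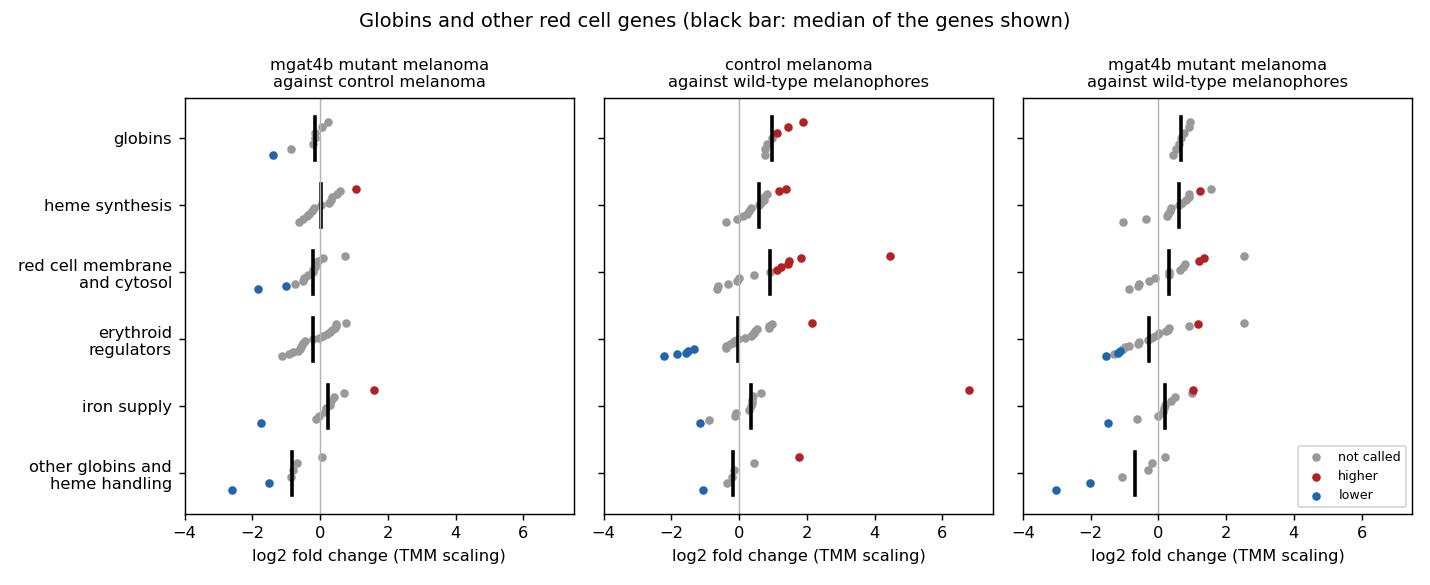
Log2 fold changes with TMM scaling of the globins and of the 5 red cell lists are drawn on the x axis, a point for each gene tested that had more than 3 counts in at least 1 library of each group, coloured by whether it was called, with a bar at the median of the points. All 7 globins lie right of 0 against wild-type melanophores, while each other list has genes on both sides of 0 there.

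Markers of other cell types differed between the groups as well, with the sums below on the TMM scale. Summed over each list, skeletal muscle markers stood at 1002 and 958 CPM in mgat4b mutant melanoma, 1797 and 1826 CPM in control melanoma and 72.1 and 67.8 CPM in wild-type melanophores. Endothelial markers, of the vessels that carry red cells, stood at 83.8 and 72.0 CPM in mgat4b mutant melanoma, 149 and 135 CPM in control melanoma and 69.8 and 64.6 CPM in wild-type melanophores. Control melanoma was highest, as for hbaa2 on the TMM scale, but for hbaa2 the mutant and wild-type libraries overlapped. Leukocyte markers ran from 607 to 631 CPM in mgat4b mutant melanoma and from 769 to 805 CPM in control melanoma, against 2408 to 2419 CPM in wild-type melanophores. Thrombocyte markers ran from 362 to 389 CPM in mgat4b mutant melanoma and from 450 to 465 CPM in control melanoma, against 345 to 350 CPM in wild-type melanophores. For mutant against control 4 of 12 endothelial and 4 of 10 muscle markers tested were called lower, beside 6.68% of all genes. For control against wild-type 9 of 12 endothelial and 10 of 10 muscle markers were called higher, beside 19.9%, and 7 of 13 leukocyte markers lower, beside 12.1%. With total counts 5 of 12 endothelial and 10 of 10 muscle markers were called higher there, beside 10.2% of all genes. Of leukocyte markers 11 of 13 and of thrombocyte markers 2 of 8 were then lower, beside 44.9%. For mutant against wild-type total counts gave 1 of 9 endothelial markers higher and 2 lower, beside 4.92% and 24.6%, against 3 and 0 with TMM. The part of these differences in the globin values was not tested.

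Among 9053 genes averaging 10 CPM or more, the 5 whose profile over the 6 libraries lay nearest to the summed adult level were BCAR1, si:ch211-183d21.1, TMEM63B, tcf3a and kdelr2a, with root mean square differences of 0.0515 to 0.0707 between centred log2 values. For the summed embryonic level they were ADCK5, FITM2, ENSDARG00000112977, LZTR1 and RTKN, at 0.133 to 0.229. The embryonic profile thus had no neighbour as close as the adult one had. The embryonic sum rests on 22 to 97 counts a library, against 3450 to 8377 for the adult sum. Its counting error is larger, so these distances cannot show whether its pattern is less shared. BCAR1, the nearest to the adult level, had 24.7 and 21.3 CPM in mgat4b mutant melanoma, 23.9 and 26.2 CPM in control melanoma and 14.1 and 14 CPM in wild-type melanophores.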

How the data were processed

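Libraries of total RNA depleted of ribosomal RNA (Illumina stranded total RNA kit) were sequenced with paired-end reads. Trimming used Trimmomatic and alignment to GRCz11 used STAR, per the study's methods and the submitters' processing notes, and the authors deposited raw read counts per gene from featureCounts, without normalization. Tool versions are not given in the labels. The annotation release, the strand setting and the treatment of reads matching several genes were not given in the sources used here.

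Symbols matched 29201 of 32520 gene identifiers through a table of names, and RefSeq synonyms (assembly GRCz12tu) served for names only. Each pair of groups was fitted on its own 4 libraries in edgeR 4.0.16 (R 4.3.3, limma 3.58.1): low counts removed by filterByExpr (min.count 10, min.total.count 15), TMM scaling, the quasi-likelihood test and Benjamini-Hochberg adjustment over all genes tested. A call needed both an adjusted p under 0.05 and a log2 fold change of 1 or more in size. The SE given for a log2 fold change in edgeR was derived as its size divided by the square root of the test's F statistic. Levels are CPM with TMM over all 6 libraries. Shares carry 95% Wilson intervals, counts exact Poisson intervals, and both cover counting error only. Sums and shares were compared by exact two-sided permutation tests, which cannot go below p = 0.333 with 2 libraries a group.

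The members, the gene lists, the tests and the alternatives were chosen with earlier results of these data known. All members are named; of the lists, genes that define red cells and the 3 called genes of lowest p per list and comparison may be named, and of the nearest genes 5 for each stage, ranked on log2(CPM + 1). The alternatives were DESeq2 1.42.0, its size factors, total counts, library sizes without globins, no filter, at least 10 counts in every library, no minimum fold change, 1 fit of all libraries, the replicate number as a block and leaving out each library. Total counts without rn7sl1 were added after the data were seen. The labels do not say that replicate numbers pair the libraries, and the main fits were unpaired. On simulated counts with 200 changed genes, edgeR called 96%, 92% and 95% of them for mutant against control, control against wild-type and mutant against wild-type. The simulated spread between replicates (biological coefficient of variation) was 0.2, against 0.231, 0.0787 and 0.211 in these data. The planted changes were larger than the fold change threshold and lay outside the genes of lowest counts. Both groups were simulated from a shared profile, without the unequal share of rn7sl1. The rates belong to the planted changes and do not give the power to call the globin changes. Of replicate pairs none agreed within sampling noise, with chi-square values per gene of 10.2 in mgat4b mutant melanoma, 2.52 in control melanoma and 2.31 in wild-type melanophores.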

Additional observations from a re-analysis of the deposited data

How the results depend on the processing

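The limits of these data are 2 libraries a group, an unequal share of rn7sl1 and unstated handling of reads shared between globin genes. With total counts in place of TMM the genes called higher and lower were 1588 and 894 (1035 and 1179 with TMM) for mutant against control, 1941 and 8568, 10509 in all (3789 and 2302 with TMM), for control against wild-type, and 883 and 4418, 5301 in all (1744 and 1717 with TMM), for mutant against wild-type. With totals without rn7sl1, chosen after the data were seen, they were 2953 and 4008 for control against wild-type and 1292 and 2469 for mutant against wild-type. The globin genes called for control against wild-type came to 0 with total counts. The log2 ratio of the summed adult level became 0.032 for mutant against control, -0.032 for control against wild-type and 3.0e-04 for mutant against wild-type with total counts, 0.53 and 0.37 for the comparisons with wild-type without rn7sl1, and 0.85 for control against wild-type with DESeq2 size factors; the summed embryonic level became -0.0061 for control against wild-type with total counts. Total counts also turned the direction of hbaa1 (0.077), ENSDARG00000097238 (0.0013) and si:ch211-5k11.8 (0.076) for mutant against control, of hbaa1 (-0.073), ENSDARG00000089087 (-0.13) and hbae4 (-0.13) for control against wild-type, and of hbaa2 (-0.17) and ENSDARG00000069734 (-0.087) for mutant against wild-type.

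Other thresholds changed counts by construction. Without a minimum fold change 10730 genes were called for control against wild-type, 2, 7 and 5 globin genes and 17, 41 and 22 other red cell genes for mutant against control, control against wild-type and mutant against wild-type. The other red cell genes tested were 64, 66 and 64. Of all genes tested, 9.46%, 29.2% and 13.1% were then higher and 9.26%, 27.0% and 13.9% lower, in the same order. Without a filter 1281 genes were called for mutant against control, and with at least 10 counts in every library 3984 for control against wild-type, 4 other red cell genes for mutant against control, and ENSDARG00000089087 came to -0.014 there. Leaving out a library gave 1140 to 5155 genes called for mutant against control and 1820 to 6452 for mutant against wild-type, with 1 to 2 and 0 to 2 globin genes and 5 to 16 and 4 to 19 other red cell genes; for mutant against control the low counts of genes (1140 and 1141) came without a control library and the high ones (4982 and 5155) without a mutant library, for mutant against wild-type the low ones (1820 and 1865) without a wild-type library and the high ones (6250 and 6452) without a mutant library, and the second globin gene came without mutant replicate 2. A lone library is there assumed to vary like the other group. The fold change of hbae4 for mutant against control ran from -0.46 without mutant replicate 1 to 0.65 without mutant replicate 2, and that of hbaa2 for mutant against wild-type from -0.085 without mutant replicate 2 to 0.79 without mutant replicate 1. The embryonic share with the names of the rule alone was 0.0654% in mgat4b mutant melanoma, 0.0659% in control melanoma and 0.0144% in wild-type melanophores. These names leave out hbae4, and the shares rest on a few reads. In any library hbae3 had at most 8 counts, hbae5 at most 2 and hbae1.1 at most 1. Over all 9 members, hbae4 included, the embryonic share per kilobase was 0.666% in wild-type melanophores. The beta type share per kilobase was 41.7%, 40.1% and 43.2% in mgat4b mutant melanoma, control melanoma and wild-type melanophores; with the names of the rule alone it could not be given, as no beta name matched. The cause of the other shifts was not tested.

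Replicate numbers gave correlations of deviations of -0.0016, -0.029 and 0.012, so no pattern shared by replicate number was seen across genes. These values cannot show that libraries of the same number had no batch in common. With the replicate block 2147, 5941 and 3488 genes and 1, 3 and 0 globin genes were called for mutant against control, control against wild-type and mutant against wild-type, and no other count moved by over 1.5 times.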

Other observations

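Other members of the globin family and genes that handle heme outside red cells were also followed. Of the 12 genes of this list 8, 8 and 6 could be tested for mgat4b mutant against control melanoma, control melanoma against wild-type melanophores and mgat4b mutant melanoma against wild-type melanophores. Cytoglobin, a globin of fibroblast-like cells (CYGB, ENSDARG00000099371), had 15.4 and 13.6 CPM in mgat4b mutant melanoma, 38.7 and 44.9 CPM in control melanoma and 14.3 and 11.9 CPM in wild-type melanophores. It fell by 1.5 on the log2 scale in mutant against control (edgeR adjusted p = 0.00184) and rose by 1.75 in control against wild-type (adjusted p = 1.4e-14; 0.86 and not called with total counts as the scale). Control melanoma was the highest group, as for hbaa2. Myoglobin, the oxygen store of muscle (mb), was called in no comparison, with 8.15 and 1.78 CPM in mgat4b mutant melanoma, 8.52 and 9.40 CPM in control melanoma and 12 and 10.05 CPM in wild-type melanophores. Neuroglobin (NGB) and globin X (xgb) had no count in mgat4b mutant melanoma and stayed at or under 1.06 and 1.36 CPM elsewhere.

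Heme oxygenase 1, which breaks heme down (HMOX1), had 17.6 and 16.3 CPM in mgat4b mutant melanoma, 29.7 and 32.8 CPM in control melanoma and 71.3 and 68.0 CPM in wild-type melanophores. It fell by 1.07 in control melanoma and by 2.01 in mgat4b mutant melanoma against wild-type melanophores (edgeR adjusted p = 7.0e-12 and 2.2e-04). Plasma proteins made by the liver that bind iron or heme were highest in control melanoma. Transferrin (tfa) had 0 counts in both mgat4b mutant libraries, 380 and 393 CPM in control melanoma and 2.47 and 5.02 CPM in wild-type melanophores. Set against 3 counts a library in the mutant, its level in control melanoma was at least 505-fold higher. Hemopexin (hpxa), which binds free heme, had 0 counts in both mutant libraries, 104 and 113 CPM in control melanoma and 0 and 0.103 CPM in wild-type melanophores, a level in control melanoma at least 141-fold higher than 3 counts a library in the mutant.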
